A study of Mus musculus with 9 samples.

Results

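The genes described here carry the names of enzyme families that add methyl groups to histones or take them off. They were taken as every array row whose single gene symbol in the probe table starts with Kdm1 to Kdm8, Kmt2, Kmt5, Setd, Prmt followed by a digit, Ehmt, Suv39 or Ezh, and rows of the same gene were averaged. This gave 50 of the 19935 genes measured. All but Ezhip encode members of methyltransferase or demethylase families. Ezhip carries a matching symbol but encodes a protein that inhibits such an enzyme. The set is called enzymes of histone methylation below, although some members act on other proteins and further such enzymes lie outside the names.

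RNA of whole testis was profiled in untreated male Swiss albino mice of an inbred line at 8, 16 and 24 days of age, during the first wave of spermatogenesis. There were 9 Affymetrix arrays, 3 per age, which the design text calls biological replicates, and no group carried a mutation or treatment. Replicates 1 and 2 are named here by the number in their titles, and replicate 3 is the array whose title has no number. Each value is a log2 difference from the median of the 9 arrays for that row, so that 0 is the median array, 1 is 2-fold above it, and no absolute level or order of levels between genes can be read.

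Methylation of histone tails marks chromatin without changing the charge of the tail, and its meaning depends on the residue. Methylation of lysine H3K4 goes with active promoters and enhancers and that of H3K36 with transcribed gene bodies, whereas H3K9 methylation goes with heterochromatin and H3K27 methylation with Polycomb repression. Lysine methyltransferases carry mostly SET domains, arginine methyltransferases form the PRMT family, and demethylases are either flavin enzymes or jumonji enzymes that need iron and 2-oxoglutarate. In the testis, these marks are rewritten as spermatogonia enter meiosis, as the X and Y chromosomes are silenced in pachytene spermatocytes, and as spermatids replace histones with protamines.

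Markers of the germ cell stages moved with age. All 7 spermatocyte markers rose between 8 and 16 days, when their mean per array went from between -2.96 and -2.75 to between -0.01 and 0.31. All 5 spermatid markers rose between 16 and 24 days, to a mean per array between 3.22 and 4.60 at 24 days from between -0.29 and -0.01 at 16 days. At 24 against 8 days, 4 of 5 markers of undifferentiated spermatogonia, 4 of 5 of differentiating spermatogonia, 4 of 5 measured Sertoli cell markers, 5 of 5 of Leydig cells, 3 of 3 of myoid cells, 3 of 3 of endothelium and 3 of 4 of macrophages were lower. The fifth spermatogonial marker of either list was higher, Id4 by 1.43 ± 0.09 and Dmrtb1 by 0.53 ± 0.13. The mean of the undifferentiated spermatogonial markers lay between 0.16 and 0.29 at 8 days and between -0.80 and -0.59 at 24 days, that of the Sertoli markers between 0.58 and 0.84 and between -0.77 and -0.52. The part of these shifts in the results that follow was not tested.

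Replicate 1 of 8 days and replicate 2 of 16 days stood apart from the other arrays. The median of 1027 olfactory receptor genes was 0.17 in each of them and between -0.05 and 0.03 in the other 7. Replicate 2 of 16 days was the lowest array of its age for 39 of the 50 genes, against 37.3% of all genes, and replicate 1 of 8 days was the lowest of its age for 30, against 38.3% of all genes. Replicate 1 of 24 days was the lowest of its age for 33, against 40.5% of all genes. The counts are also given without both arrays that stood apart.

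Most enzymes of histone methylation were lower at 24 than at 8 days. Of the 50 genes, 30 fell, 4 rose and 16 did not pass the test (limma, adjusted p under 0.05 over all genes), where 35.2% of all genes fell, 19.2% rose and 54.4% were called in either direction. The 4 that rose were Kdm4d, Kdm3a, Ezh2 and Prmt7. The median change was -0.51 on the log2 scale, against -0.18 over all genes, and 42 of the 50 estimates lay below 0. At least 2-fold changes that passed the test were rises of Kdm4d and Kdm3a, against 9.72% of all genes, and falls of 5 genes (Setd7, Kdm5d, Ehmt1, Kdm1b and Kmt2a), against 7.16% of all genes. In whole testis, fewer cells of a type and less RNA per cell cannot be told apart.

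Taken interval by interval, between 8 and 16 days 9 genes fell and 4 rose (Kdm4d, Kdm3a, Ezh2 and Kdm5b), against 14.3% and 10.4% of all genes and 24.7% in either direction, and the median change was -0.09 against -0.02 over all genes. Between 16 and 24 days 25 fell and 2 rose (Kdm4d and Prmt7), against 20.1% and 13.2% of all genes and 33.3% in either direction, and the median change was -0.36 against -0.16. In these intervals only Kdm4d and Kdm3a reached a 2-fold change, upward and between 8 and 16 days, where 3.82% of all genes rose and 0.968% fell by that much. Between 16 and 24 days 5.38% of all genes rose and 0.145% fell at least 2-fold. The intervals share the 16-day arrays, so that a high or low value there moves them in opposite directions. The size of the change differed between the intervals for 3 genes, Kdm4d, Kdm3a and Kdm5b, each with a lower change in the second interval, and for none of the 30 genes that fell at 24 against 8 days. These 3 calls stand against 2.31% of all genes lower, 3.06% higher and 5.38% in either direction. No gene was called with a higher change in the second interval. At an unadjusted p under 0.05 in limma 0 were higher and 10 lower, counts that were not made over all genes. The estimate was below 0 for 37 of the 50 genes and for 12753 of all 19935. The moderated F over the 3 ages called 34 of the 50, against 50.7% of all genes.

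The arrays of a pair of ages often did not overlap, also for genes that the test did not call. At 8 and 16 days they were apart for 19 of the 50 genes, against 36.2% of all genes, at 16 and 24 days for 37, against 55.6%, and at 8 and 24 days for 40, against 65.5%.

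The counts of the single intervals depended on single arrays and on scaling. After each array was centred on its median over all genes, 13 of the 50 genes fell and 2 rose between 16 and 24 days, against 9.67% and 14.4% of all genes. For 24 against 8 days the centred counts were 27 falls and 5 rises, against 26.3% and 22.0% of all genes, and for 16 against 8 days 6 falls and 4 rises, against 10.9% and 10.4%. The centred fit lost the falls of Kdm1b, Kdm2a, Kdm4a, Kdm5c, Kdm5d, Kdm6b, Kmt2e, Kmt5b, Prmt2, Prmt3, Setd6 and Setd7 between 16 and 24 days and those of Ehmt1, Kdm1b and Kdm5c between 8 and 16 days. Centring moved the median of all genes at 24 against 8 days from -0.18 to -0.06, and the median of the 50 genes stayed 0.34 below it. With blank cells left missing, 5 genes fell between 8 and 16 days, against 10.6% of all genes. Between 16 and 24 days 16 fell, against 12.2%. Leaving out replicate 1 or 3 of 16 days or replicate 1 of 24 days reduced the falls between 16 and 24 days to 13, 14 and 12. The shares of all genes that fell were then 8.39%, 13.1% and 8.85%. Leaving out replicate 2 of 8 days or replicate 2 of 16 days left 5 falls between 8 and 16 days. There 9.31% and 9.86% of all genes fell. The 3 differences between the intervals came down to that of Kdm4d without replicate 3 of 8 days, replicates 1 or 3 of 16 days or any single array of 24 days. The rises between 16 and 24 days came down to Kdm4d without replicates 1 or 3 of 16 days or of 24 days. Without both arrays that stood apart, 32 genes fell and 4 rose at 24 against 8 days and 33 fell between 16 and 24 days. The shares of all genes were 36.7% and 19.3% at 24 against 8 days and 28.9% between 16 and 24 days. Of the calls at 24 against 8 days, all 4 rises and 27 of 30 falls passed whichever single array was left out, and the exceptions were Kdm2a, Kdm4c and Kdm8.

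**Figure D1:**
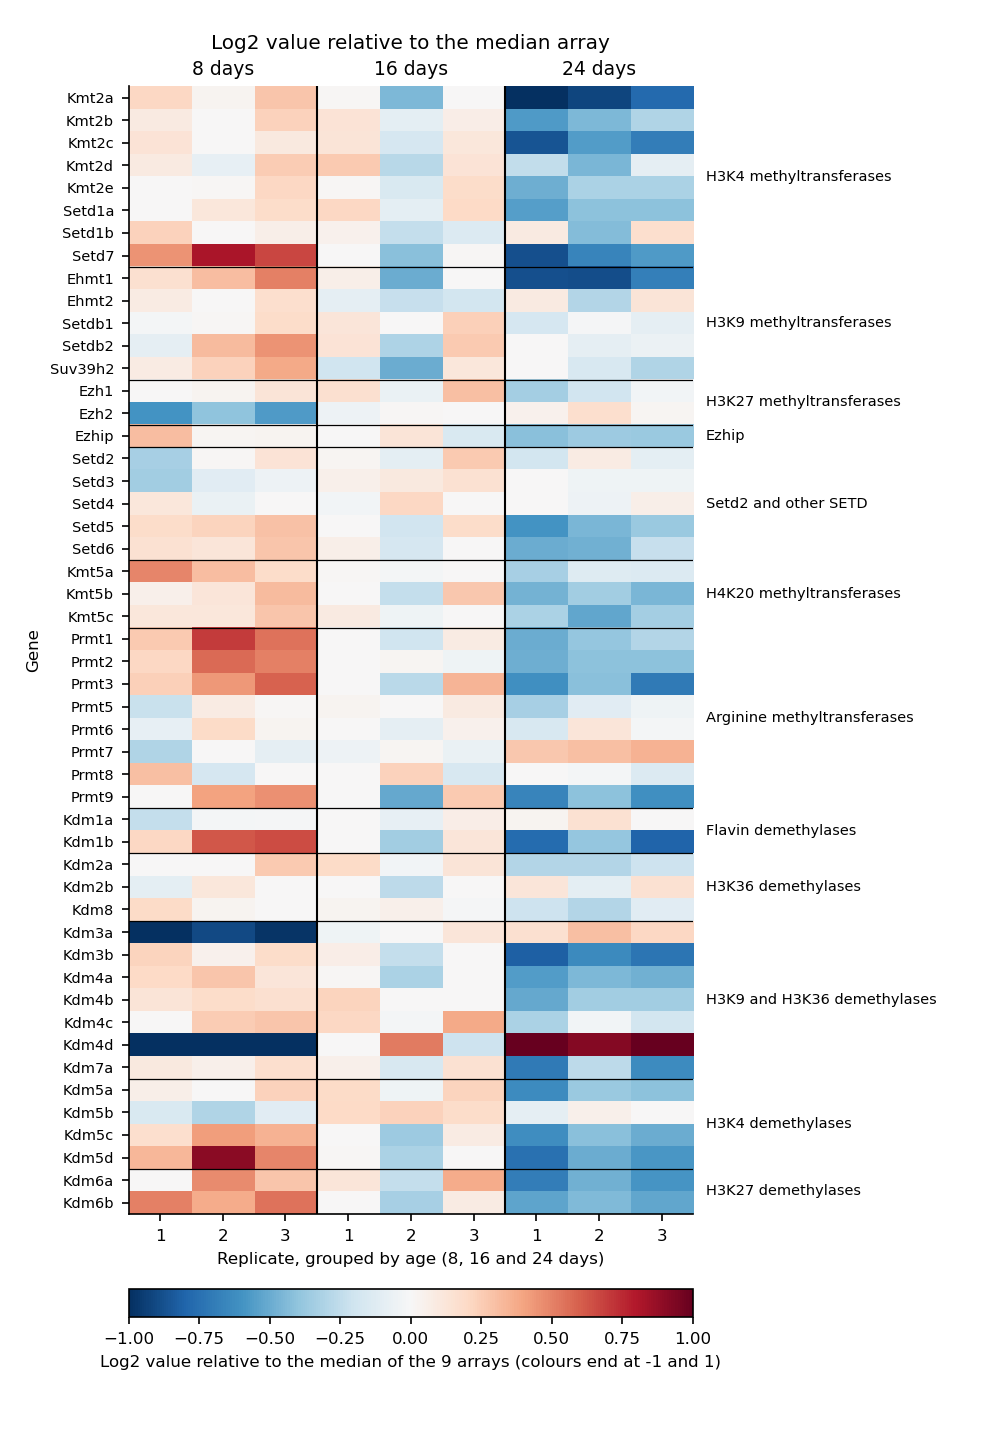
Log2 values of the 50 genes (rows, grouped by the residue or family of the enzyme) in each of the 9 arrays (columns, replicates 1 to 3 at 8, 16 and 24 days), relative to the median of the 9 arrays, with colours ending at -1 and 1. The 24-day columns are mostly blue for the 30 genes that fell against 8 days, and Kdm4d and Kdm3a are below the end of the scale or near it at 8 days.

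The 4 genes that rose between 8 and 16 days, where 9 fell, are shown first with the sequence before their start sites. Setd7, which had the largest fall at 24 against 8 days, is shown with them. Each line gives the 250 bases before the most 5′ RefSeq start of the gene (GRCm38.p6), from 5′ to 3′ on the strand of the gene, and capitals mark matches to the MYB motif, CAACNG or TAACNG on either strand, which differ in their first base and so share no match. Kdm4d is read from chr9:14500483-14500732 (minus strand), Kdm3a from chr6:71632918-71633167 (minus), Ezh2 from chr6:47595031-47595280 (minus), Kdm5b from chr1:134559928-134560177 (plus) and Setd7 from chr3:51560824-51561073 (minus).
Kdm4d: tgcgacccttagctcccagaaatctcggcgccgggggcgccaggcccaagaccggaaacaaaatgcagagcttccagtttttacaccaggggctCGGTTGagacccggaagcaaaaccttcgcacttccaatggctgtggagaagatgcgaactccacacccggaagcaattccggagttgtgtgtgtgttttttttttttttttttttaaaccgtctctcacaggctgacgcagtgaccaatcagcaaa
Kdm3a: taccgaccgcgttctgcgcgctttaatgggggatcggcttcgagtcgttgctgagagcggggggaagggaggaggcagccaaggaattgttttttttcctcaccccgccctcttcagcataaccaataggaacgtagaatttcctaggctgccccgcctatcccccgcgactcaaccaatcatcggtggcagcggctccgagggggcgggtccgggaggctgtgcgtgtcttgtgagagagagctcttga
Ezh2: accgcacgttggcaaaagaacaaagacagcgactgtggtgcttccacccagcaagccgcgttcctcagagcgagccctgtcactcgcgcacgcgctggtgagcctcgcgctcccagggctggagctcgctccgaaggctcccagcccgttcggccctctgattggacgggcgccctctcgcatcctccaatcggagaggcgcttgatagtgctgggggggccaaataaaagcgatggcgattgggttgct
Kdm5b: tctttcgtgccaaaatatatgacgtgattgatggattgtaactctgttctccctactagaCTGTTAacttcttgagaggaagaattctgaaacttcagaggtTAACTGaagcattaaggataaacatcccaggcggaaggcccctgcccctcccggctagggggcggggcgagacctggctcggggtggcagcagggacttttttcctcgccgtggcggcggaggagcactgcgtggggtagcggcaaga
Setd7: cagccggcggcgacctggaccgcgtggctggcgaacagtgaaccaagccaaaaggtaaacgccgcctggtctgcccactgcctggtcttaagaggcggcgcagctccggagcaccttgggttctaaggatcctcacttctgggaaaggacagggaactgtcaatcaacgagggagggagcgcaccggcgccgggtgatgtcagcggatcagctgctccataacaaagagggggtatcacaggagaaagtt

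The Kdm4d stretch held 1 match to the MYB motif, 156 bases before the start, and that of Kdm5b held 2, at 190 and 148 bases before it. The stretches of Kdm3a, Ezh2 and Setd7 held none. RefSeq promoter windows of 300 bases, 250 before to 50 after a start, were found for 42 of the 50 genes, 54 windows in all. Of these, 48.1% held a MYB motif, against 49.7% of 32851 windows of all genes. The whole window of the Kdm3a start shown held 1 match and that of Kdm5b held 3, as windows reach past the printed bases. The motif CNCCTCAG, known for STRA8 and MEIOSIN, was in 2 of the 54 windows (3.70%), against 7.94%. TGACGTCA, the full site of CREM, was also in 2 (3.70%), against 1.79%. With 2 windows each, no difference from all windows can be read. The windows of these enzymes were rich in CG, with a median of 26.5 CG dinucleotides against 7.0 over all windows. These matches describe the letters of the windows only.

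Among the demethylases of H3K9, Kdm4d and Kdm3a rose and the other 5 genes of this group fell at 24 against 8 days. Over all genes 19.2% rose and 35.2% fell. KDM4D removes trimethyl marks from H3K9, lacks the PHD and Tudor domains of its relatives and is known as a testis-rich enzyme. The values of Kdm4d (gene ID 244694, chromosome 9) in replicates 1, 2 and 3 were -2.39, -2.64 and -2.54 at 8 days, 0.00, 0.52 and -0.21 at 16 days, and 1.08, 0.92 and 1.25 at 24 days. The ages did not overlap, and all 8-day arrays lay more than 2 log2 units below the others. It rose by 2.63 ± 0.17 (standard error, 3 arrays per age) between 8 and 16 days (limma adjusted p = 4.54e-06) and by 0.98 ± 0.17 between 16 and 24 days (0.00282), 12.2-fold in all. Its change was smaller in the second interval by 1.65 ± 0.30 (adjusted p = 0.0101), and this remained below 0.05 whichever array was left out (highest 0.0346).

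KDM3A removes mono- and dimethyl marks from H3K9 and is known to be needed for the transition protein and protamine genes in spermatids. For Kdm3a (gene ID 104263, chromosome 6) the arrays read -1.44, -0.90 and -0.98 at 8 days, -0.04, 0.00 and 0.12 at 16 days, and 0.16, 0.30 and 0.21 at 24 days. The 8-day arrays were far below the rest, replicate 1 lowest, and the 16-day and 24-day arrays were apart by little. The rise was 1.13 ± 0.13 between 8 and 16 days (limma adjusted p = 2.53e-04) and 0.20 ± 0.13 between 16 and 24 days, which did not pass (0.256). At 24 against 8 days it was 2.51-fold higher. The difference between its intervals, -0.93 ± 0.23, passed narrowly (adjusted p = 0.0491) and was lost without replicate 3 of 8 days or any single array of 16 or 24 days, with adjusted p up to 0.181.

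Kdm3b and Kdm4a, their nearest relatives here, went the other way. Kdm3b (gene ID 277250, chromosome 18), also an H3K9 demethylase, read 0.22, 0.04 and 0.18 at 8 days, 0.07, -0.24 and 0.00 at 16 days, and -0.82, -0.64 and -0.73 at 24 days. The 24-day arrays lay below all others. It changed by -0.20 ± 0.10 between 8 and 16 days, which did not pass, and fell by 0.68 ± 0.10 between 16 and 24 days (limma adjusted p = 0.00132), 1.84-fold lower in all. Kdm4a (gene ID 230674, chromosome 4), whose product removes methyl marks from H3K9 and H3K36, read 0.20, 0.28 and 0.12 at 8 days, 0.01, -0.32 and 0.00 at 16 days, and -0.56, -0.45 and -0.48 at 24 days. No ages overlapped, and replicate 2 was the low array of 16 days. It fell by 0.70 ± 0.11 at 24 against 8 days (limma adjusted p = 2.98e-04).

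The remaining genes of this group were Kdm4b, Kdm4c and Kdm7a. Kdm4b and Kdm7a fell between 16 and 24 days, by 0.47 ± 0.09 and 0.55 ± 0.13 (limma adjusted p = 0.00431 and 0.0105), and these calls did not depend on any single array. KDM7A acts on dimethyl marks of H3K9 and H3K27, and both array rows of Kdm7a fell in that interval, by 0.51 and 0.58. Kdm4c fell by 0.35 ± 0.13 at 24 against 8 days (adjusted p = 0.0386). Its call was lost without replicates 2 or 3 of 8 days, replicate 1 of 16 days or replicates 1 or 3 of 24 days (up to 0.136), and after centring (0.209).

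**Figure D2:**
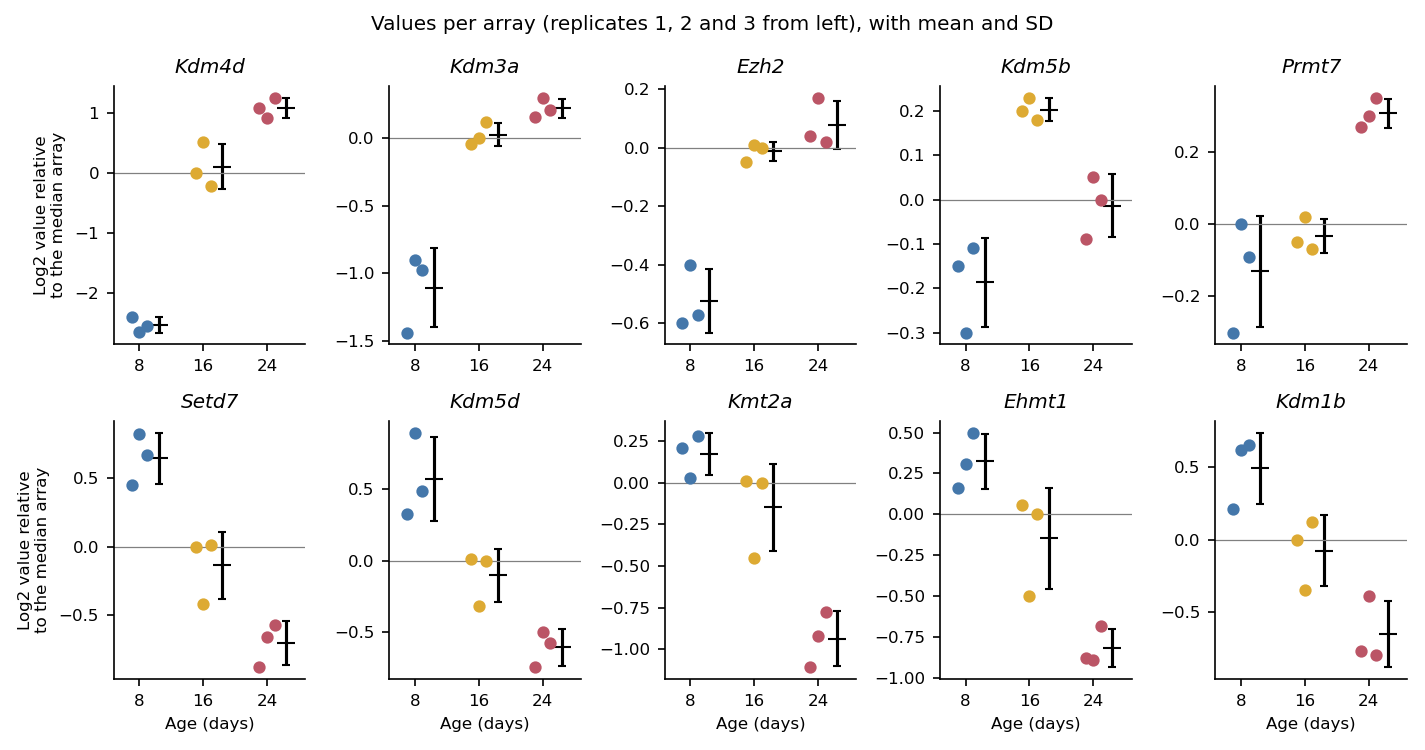
Log2 values per array relative to the median array for Kdm4d, Kdm3a, Ezh2, Kdm5b and Prmt7 (upper row) and Setd7, Kdm5d, Kmt2a, Ehmt1 and Kdm1b (lower row) by age in days, with points for replicates 1, 2 and 3 and bars for the mean and SD of 3 arrays. The vertical axes differ between panels. Kdm4d spans from -2.64 at 8 days to 1.25 at 24 days, while Kdm5b is highest at 16 days, between 0.18 and 0.23.

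H3K27 is methylated by PRC2, whose catalytic subunit is EZH2 or EZH1. Ezh2 (gene ID 14056, chromosome 6) read -0.60, -0.40 and -0.57 at 8 days, -0.05, 0.01 and 0.00 at 16 days, and 0.04, 0.17 and 0.02 at 24 days. The 8-day arrays were below all others and the older ages differed little. It rose by 0.51 ± 0.09 between 8 and 16 days (limma adjusted p = 0.00218), changed by 0.09 ± 0.09 between 16 and 24 days (0.415) and was 1.52-fold higher at 24 than at 8 days. Ezh1 (gene ID 14055, chromosome 11) read 0.00, 0.03 and 0.13 at 8 days, 0.16, -0.07 and 0.30 at 16 days, and -0.34, -0.19 and -0.03 at 24 days. Its 24-day arrays were below those of 8 days, but no comparison passed, with a change of -0.24 ± 0.12 at 24 against 8 days (adjusted p = 0.109). In the second interval Ezh1 did not pass in the main fit (0.0618). It passed without replicate 2 of 16 days or replicate 3 of 24 days (down to 0.0174) and with array weights.

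Ezhip, a gonadal inhibitor of PRC2 encoded on the X chromosome, fell by 0.50 ± 0.11 at 24 against 8 days (limma adjusted p = 0.00234). All its 24-day arrays, between -0.42 and -0.36, lay below those of the other ages. The fall by 0.38 ± 0.11 between 16 and 24 days (0.0224) was lost without replicates 1 or 2 of 16 days or replicates 1 or 3 of 24 days (up to 0.0784). Of 9 other PRC2 components, Phf1 rose by 1.53 ± 0.14 and 4 fell at 24 against 8 days. Over all genes 19.2% rose and 35.2% fell. PHF1 is an accessory subunit that reads H3K36 methylation, and its gene rose in both intervals, by 0.91 and 0.62. Rbbp7, a histone-binding subunit, fell by 0.83 ± 0.15 and Phf19, a relative of Phf1, by 0.64 ± 0.12. The core partners Suz12 and Eed were added after their values were seen, and Suz12 fell by 0.39 ± 0.11 while Eed changed by -0.02 ± 0.08. After centring, 3 of the 4 falls passed.

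The H3K27 demethylases both fell at 24 against 8 days, where 35.2% of all genes fell. Kdm6b (gene ID 216850, chromosome 11) encodes JMJD3, a demethylase that is induced in many settings, and read 0.50, 0.37 and 0.54 at 8 days, 0.00, -0.33 and 0.08 at 16 days, and -0.53, -0.44 and -0.52 at 24 days. No ages overlapped. It fell by 0.56 ± 0.11 between 8 and 16 days (limma adjusted p = 0.00582) and by 0.41 ± 0.11 between 16 and 24 days (0.0203), 1.96-fold in all. The second of these falls was lost without replicates 1 or 3 of 16 days or replicates 1 or 3 of 24 days (up to 0.0840) and after centring (0.0705). Kdm6a (gene ID 22289, chromosome X) encodes UTX, which also serves in the KMT2C and KMT2D complexes, and read 0.00, 0.47 and 0.28 at 8 days, 0.12, -0.24 and 0.37 at 16 days, and -0.69, -0.48 and -0.59 at 24 days. The 8-day and 16-day arrays overlapped and the 24-day arrays lay below both. It fell by 0.83 ± 0.16 at 24 against 8 days (adjusted p = 0.00155) and by 0.67 ± 0.16 between 16 and 24 days (0.0123). The call between 16 and 24 days was lost without replicate 1 of 24 days (0.0515), the only single array that mattered. It was also lost when only the 6 numbered arrays were fitted.

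Of the 8 genes in the H3K4 methyltransferase group, 6 fell at 24 against 8 days and none rose. Over all genes 35.2% fell and 19.2% rose. The median change was -0.55, against -0.18 over all genes. The group comprises the KMT2 and SETD1 families and SETD7. KMT2A to KMT2D, SETD1A and SETD1B work in COMPASS complexes. Kmt2e was placed in the group by its family name, not by a known activity on H3K4. Setd7 (gene ID 73251, chromosome 3), whose enzyme places single methyl groups on H3K4 and on non-histone proteins, read 0.45, 0.82 and 0.67 at 8 days, 0.00, -0.42 and 0.01 at 16 days, and -0.88, -0.66 and -0.57 at 24 days. It fell in steps with no overlap, and replicate 2 was the low array of 16 days. The falls were 0.78 ± 0.15 between 8 and 16 days (limma adjusted p = 0.00352) and 0.57 ± 0.15 between 16 and 24 days (0.0154), 2.55-fold in all. The second was lost without replicates 1 or 3 of 16 days or replicate 1 of 24 days (up to 0.0676) and after centring (0.0557).

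Kmt2a (gene ID 214162, chromosome 9) encodes MLL1, known for maintaining Hox gene expression. Its arrays read 0.21, 0.03 and 0.28 at 8 days, 0.01, -0.45 and 0.00 at 16 days, and -1.11, -0.92 and -0.78 at 24 days. The 24-day arrays were all far below the others, while replicate 2 at 16 days lay between. It changed by -0.32 ± 0.14 between 8 and 16 days, which did not pass, and fell by 0.79 ± 0.14 between 16 and 24 days (limma adjusted p = 0.00303), 2.16-fold in all. Kmt2c (gene ID 231051, chromosome 5), one of the enhancer enzymes of H3K4, read 0.14, 0.00 and 0.10 at 8 days, 0.13, -0.17 and 0.11 at 16 days, and -0.86, -0.56 and -0.69 at 24 days. The 8-day and 16-day arrays overlapped and it fell by 0.73 ± 0.11 between 16 and 24 days (adjusted p = 0.00133). Kmt2b, Kmt2e and Setd1a also fell at 24 against 8 days, by 0.55, 0.45 and 0.55, with changes of -0.07, -0.06 and 0.01 in the first interval that did not pass. Between 16 and 24 days Kmt2b, Setd1a, Kmt2a and Kmt2c passed whichever array was left out, and Kmt2e was lost without replicates 1 or 3 of 16 days or replicate 1 of 24 days (up to 0.0908).

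Kmt2d and Setd1b did not pass in any comparison. Kmt2d, the other enhancer enzyme, changed by -0.35 ± 0.15 at 24 against 8 days (limma adjusted p = 0.0801), and passed without replicate 2 of 16 days (0.0325), as did its change between 16 and 24 days (0.0264 without that array, 0.151 with it). Setd1b changed by -0.15 ± 0.16. Its array rows disagreed in direction between 16 and 24 days (-0.02 and 0.13). Among 12 partner subunits of COMPASS complexes, 3 rose and 6 fell at 24 against 8 days, against 19.2% and 35.2% of all genes. Of these, 3 rises and 4 falls passed whichever array was left out. Psip1, the chromatin tether that binds H3K36 methylation, rose by 1.53 ± 0.14 and Hcfc2 by 1.05 ± 0.10. Hcfc1, the X-linked paralogue of Hcfc2, fell by 1.26 ± 0.14.

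The H3K4 demethylases of the KDM5 family split. Kdm5b (gene ID 75605, chromosome 1), a demethylase of H3K4 trimethyl marks, read -0.15, -0.30 and -0.11 at 8 days, 0.20, 0.23 and 0.18 at 16 days, and -0.09, 0.05 and 0.00 at 24 days. It was highest at 16 days, and no ages overlapped. It rose by 0.39 ± 0.08 between 8 and 16 days (limma adjusted p = 0.00762) and changed by -0.22 ± 0.08 between 16 and 24 days (0.0720). At 24 against 8 days the change of 0.17 ± 0.08 did not pass (0.110), but passed after centring, at 0.29 (0.0136). The difference between its intervals, -0.60 ± 0.14 (0.0407), was lost without any single array except replicate 1 of 8 days (up to 0.170), without both arrays that stood apart (0.0751) and after centring (0.0596).

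Kdm5a, Kdm5c and Kdm5d fell at 24 against 8 days, where 35.2% of all genes fell. Kdm5a (gene ID 214899, chromosome 6) read 0.06, 0.00 and 0.23 at 8 days, 0.19, -0.04 and 0.22 at 16 days, and -0.63, -0.37 and -0.41 at 24 days. Its 8-day and 16-day arrays overlapped, and it fell by 0.59 ± 0.11 between 16 and 24 days (limma adjusted p = 0.00371). Kdm5c (gene ID 20591, chromosome X) read 0.17, 0.42 and 0.35 at 8 days, 0.00, -0.36 and 0.08 at 16 days, and -0.62, -0.42 and -0.50 at 24 days. Its Y-linked partner Kdm5d (gene ID 20592, chromosome Y) read 0.33, 0.90 and 0.49 at 8 days, 0.01, -0.32 and 0.00 at 16 days, and -0.75, -0.50 and -0.58 at 24 days. Both fell stepwise with no overlap, and replicate 2 was the low array of 16 days in each. Kdm5c fell by 0.40 ± 0.13 and 0.42 ± 0.13 over the intervals (adjusted p = 0.0416 and 0.0290) and 1.77-fold in all, Kdm5d by 0.68 ± 0.15 and 0.51 ± 0.15 (0.00961 and 0.0300) and 2.28-fold in all.

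Both falls at 24 against 8 days, and the first step of Kdm5d, passed whichever array was left out. The other step calls did not. The first step of Kdm5c was lost without any single array other than replicate 1 of 8 days and replicate 3 of 16 days (up to 0.136). The second was lost for both genes without replicates 1 or 3 of 16 days or replicates 1 or 3 of 24 days (up to 0.108 for Kdm5c and 0.111 for Kdm5d) and after centring (0.113 and 0.101). Of the 50 genes, 4 lie on the sex chromosomes. Kdm5c, Kdm6a and Ezhip on the X and Kdm5d on the Y all fell at 24 against 8 days, where 54.5% of the 739 measured X-linked genes fell and 12.3% rose. Uty, the Y-linked relative of Kdm6a outside the naming rule, fell by 1.12 ± 0.20, and Phf8, an X-linked H3K9 demethylase, by 0.79 ± 0.14.

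Of 5 measured H3K9 methyltransferase genes, only Ehmt1 passed at 24 against 8 days, where 54.4% of all genes were called, and it fell. EHMT1 and EHMT2, also called GLP and G9a, act as a heterodimer that places mono- and dimethyl marks. Ehmt1 (gene ID 77683, chromosome 2) read 0.16, 0.31 and 0.50 at 8 days, 0.06, -0.50 and 0.00 at 16 days, and -0.88, -0.89 and -0.68 at 24 days. The 24-day arrays were close together and lowest. Ehmt2 (gene ID 110147, chromosome 17) read 0.08, 0.00 and 0.17 at 8 days, -0.09, -0.23 and -0.18 at 16 days, and 0.09, -0.29 and 0.13 at 24 days. Its 24-day arrays overlapped with both other ages, and replicate 2 of 24 days was the lowest of all. Ehmt1 fell by 0.47 ± 0.15 and 0.67 ± 0.15 over the intervals (limma adjusted p = 0.0490 and 0.00926), 2.21-fold in all, while Ehmt2 changed by -0.11 ± 0.12 at 24 against 8 days (0.456).

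The first fall of Ehmt1 was lost without replicates 2 or 3 of 8 days, replicate 2 of 16 days or any single array of 24 days (up to 0.168). Suv39h2, the testis-rich enzyme of H3K9 trimethylation, changed by -0.43 ± 0.15 between 8 and 16 days (limma adjusted p = 0.0727; 0.0163 without replicate 3 of 16 days) and by 0.05 ± 0.15 thereafter. At 24 against 8 days it did not pass in the main fit (-0.38 ± 0.15, 0.0597). It passed there without replicates 2 or 3 of 16 days (down to 0.0253), with array weights and with blanks left missing. Setdb1, which silences retroelements, and Setdb2 changed by -0.15 ± 0.10 and -0.28 ± 0.17 and did not pass, though Setdb2 passed without replicate 1 of 8 days (0.0428) or without both arrays that stood apart (0.00186). Suv39h1 was not analysed here. Of 12 measured H3K9 readers and heterochromatin proteins, 2 rose and 3 fell at 24 against 8 days. Over all genes 19.2% rose and 35.2% fell. Cbx3, which encodes HP1 gamma, fell by 0.72 ± 0.14 and Wiz, a partner of EHMT2, by 0.59 ± 0.09. Atf7ip2, a germ cell relative of the SETDB1 partner ATF7IP, rose by 0.58 ± 0.10.

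The H4K20 methyltransferases all fell at 24 against 8 days, where 35.2% of all genes fell. Kmt5a, the enzyme of the single methyl mark that peaks at cell division, fell by 0.52 ± 0.10 (limma adjusted p = 0.00127). Kmt5b and Kmt5c, which add the further methyl groups, fell by 0.59 ± 0.13 and 0.56 ± 0.09 (0.00317 and 5.03e-04). Kmt5a fell already between 8 and 16 days, by 0.33 ± 0.10 (0.0378), but this was lost without any single array except replicate 3 of 8 days and replicate 1 of 24 days (up to 0.0932) and without both arrays that stood apart (0.124). Kmt5b and Kmt5c fell between 16 and 24 days, by 0.43 and 0.41, and only the call of Kmt5c passed without every single array. That of Kmt5b was lost without replicates 1 or 3 of 16 days or of 24 days (up to 0.0921).

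Of 5 SETD genes outside the H3K4 and H3K9 groups, Setd5 and Setd6 fell at 24 against 8 days, where 35.2% of all genes fell. The falls were 0.70 ± 0.11 and 0.58 ± 0.10 (limma adjusted p = 3.34e-04 and 8.91e-04). Setd2, the main enzyme of H3K36 trimethylation, read between -0.33 and 0.26 over all arrays and changed by -0.01 ± 0.14. Setd3, which methylates actin on histidine, changed by 0.27 ± 0.09 between 8 and 16 days, with arrays that did not overlap (adjusted p = 0.0614). Setd4 changed by -0.01 ± 0.09. Setd5 fell by 0.48 ± 0.11 between 16 and 24 days (0.00938) and passed there whichever array was left out, while the fall of Setd6 by 0.36 (0.0246) was lost without replicates 1 or 3 of 16 days or replicates 1 or 2 of 24 days (up to 0.103). Setd9 was not analysed here.

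The demethylases of H3K36 moved little. KDM2A and KDM2B bind unmethylated CpG islands, and KDM2B recruits a variant Polycomb complex. Kdm2a (gene ID 225876, chromosome 19) read 0.00, 0.00 and 0.26 at 8 days, 0.19, -0.03 and 0.13 at 16 days, and -0.29, -0.29 and -0.21 at 24 days. The 24-day arrays were lowest. Kdm2b (gene ID 30841, chromosome 5) read -0.10, 0.11 and 0.00 at 8 days, 0.00, -0.26 and 0.00 at 16 days, and 0.12, -0.10 and 0.15 at 24 days, with all ages overlapping. Kdm2a fell by 0.35 ± 0.10 at 24 against 8 days (limma adjusted p = 0.0128), which was lost without replicate 3 of 8 days (0.0506) and after centring (0.116). Kdm2b changed by 0.05 ± 0.11 (0.704). Kdm8 fell by 0.28 ± 0.09 (0.0197), which was lost without replicates 1 or 2 of 24 days (up to 0.0720) and after centring (0.119).

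The flavin demethylases differed. KDM1A, or LSD1, removes mono- and dimethyl marks from H3K4 in the CoREST complex, and KDM1B, or LSD2, does so without CoREST and is known from growing oocytes. Kdm1b (gene ID 218214, chromosome 13) read 0.21, 0.62 and 0.65 at 8 days, 0.00, -0.35 and 0.12 at 16 days, and -0.77, -0.39 and -0.80 at 24 days. It fell in steps with no overlap, replicate 2 being the low array at 16 days and the high array at 24 days. Kdm1a (gene ID 99982, chromosome 4) read -0.24, -0.02 and -0.01 at 8 days, 0.00, -0.08 and 0.07 at 16 days, and 0.03, 0.15 and 0.00 at 24 days. Its arrays stayed within 0.24 of the median array. Kdm1b fell by 0.57 ± 0.17 in each interval (limma adjusted p = 0.0331 and 0.0267), 2.21-fold in all, and Kdm1a changed by 0.15 ± 0.09 at 24 against 8 days (0.207).

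The first step of Kdm1b was lost without replicates 2 or 3 of 8 days or replicates 1 or 2 of 16 days (up to 0.117), and the second without replicates 1 or 3 of 16 days or of 24 days (up to 0.0960), while the fall at 24 against 8 days passed without any of them (up to 0.00174). Of 11 measured CoREST partners, 2 rose and 4 fell at 24 against 8 days. These 18.2% and 36.4% were near the 19.2% and 35.2% of all genes. All 6 calls passed whichever array was left out. Rcor3 and Rcor2, paralogous scaffold subunits, went opposite ways, with a rise of 1.73 ± 0.10 and a fall of 1.51 ± 0.18. Zmym3, an X-linked zinc finger subunit, fell by 1.15 ± 0.11.

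Among the 8 arginine methyltransferases, 4 fell and Prmt7 rose at 24 against 8 days, against 35.2% and 19.2% of all genes. Prmt1 (gene ID 15469, chromosome 7), which places most asymmetric dimethylarginine, read 0.26, 0.70 and 0.54 at 8 days, 0.00, -0.20 and 0.08 at 16 days, and -0.50, -0.39 and -0.29 at 24 days. Prmt2 (gene ID 15468, chromosome 10), a coactivator with weak activity of its own, read 0.21, 0.57 and 0.50 at 8 days, 0.00, 0.02 and -0.04 at 16 days, and -0.49, -0.41 and -0.41 at 24 days. The ages of each did not overlap, and Prmt2 was tight at 16 days. Prmt1 fell by 0.54 ± 0.13 between 8 and 16 days (limma adjusted p = 0.0113) and changed by -0.35 ± 0.13 thereafter (0.0554), 1.86-fold lower in all. The second change passed without replicates 1 or 2 of 8 days or replicate 2 of 16 days (down to 0.0243). Prmt2 fell by 0.43 ± 0.10 in each interval (0.0113 and 0.0103), 1.82-fold in all, and after centring the second fall did not pass (0.0627).

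Prmt3 (gene ID 71974, chromosome 7), an enzyme of ribosomal proteins, read 0.24, 0.43 and 0.59 at 8 days, 0.00, -0.27 and 0.34 at 16 days, and -0.61, -0.42 and -0.71 at 24 days. Prmt9 (gene ID 102182, chromosome 8), which acts on a splicing factor, read 0.00, 0.40 and 0.46 at 8 days, 0.00, -0.51 and 0.26 at 16 days, and -0.66, -0.41 and -0.61 at 24 days. In both genes replicate 2 of 16 days was low and replicate 3 high, and the 24-day arrays lay below all 8-day arrays. Prmt3 fell by 1.00 ± 0.16 and Prmt9 by 0.85 ± 0.19 at 24 against 8 days (limma adjusted p = 4.04e-04 and 0.00341). Prmt3 fell by 0.60 ± 0.16 between 16 and 24 days (0.0171), which was lost without replicates 1 or 3 of 16 days or of 24 days (up to 0.0604) and after centring (0.0579). In the first interval Prmt3 passed without replicate 3 of 16 days (0.0208) or with array weights, but not in the main fit (0.103). Prmt9 passed between 16 and 24 days without replicate 2 of 16 days (0.00777) or with array weights, but not in the main fit (-0.48 ± 0.19, 0.0769).

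Prmt7 (gene ID 214572, chromosome 8), the family's enzyme of monomethylarginine, was singled out after its values were seen as the other gene that rose. Its arrays read -0.30, 0.00 and -0.09 at 8 days, -0.05, 0.02 and -0.07 at 16 days, and 0.27, 0.30 and 0.35 at 24 days. The 24-day arrays were above all others, while 8 and 16 days overlapped. It rose by 0.34 ± 0.09 between 16 and 24 days (limma adjusted p = 0.0196) and was 1.35-fold higher at 24 than at 8 days (0.00248). The rise between 16 and 24 days was lost without replicates 1 or 3 of 16 days or of 24 days (up to 0.0740). Prmt5, the main enzyme of symmetric dimethylarginine, and Prmt6 and Prmt8 changed by -0.11 ± 0.11, -0.07 ± 0.10 and -0.10 ± 0.14 at 24 against 8 days and did not pass. Of 6 PRMT cofactors, 2 rose and 2 fell, against 19.2% and 35.2% of all genes. The rise of Tdrd3 by 0.32 (limma adjusted p = 0.0412) was lost without any single array except replicate 2 of 8 days and replicate 2 of 16 days. Coprs, which guides PRMT5 to histones, rose by 0.67 ± 0.11 and Wdr77, the obligate partner of PRMT5, fell by 0.65 ± 0.08.

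**Figure D3:**
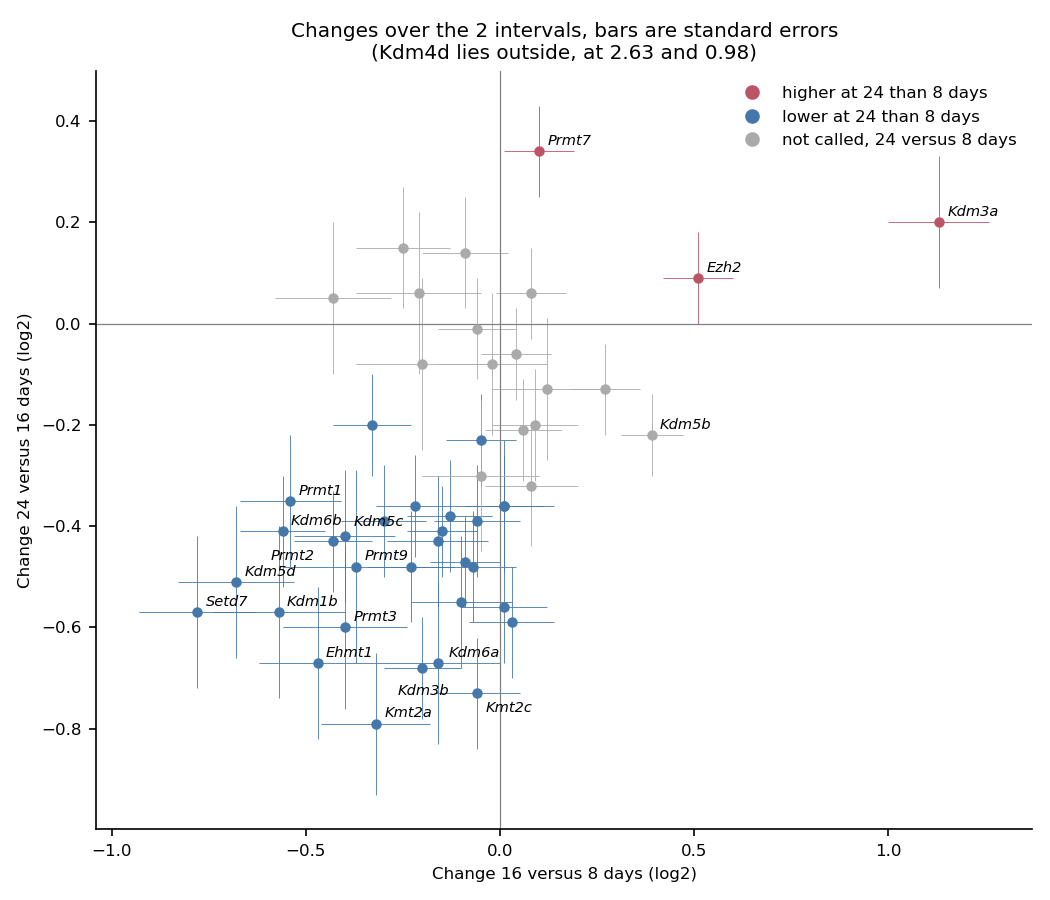
Change between 8 and 16 days (horizontal, log2) against change between 16 and 24 days (vertical, log2) for 49 of the 50 genes, with limma standard errors as bars; Kdm4d lies outside the range. Red genes were higher and blue genes lower at 24 than at 8 days by the test. Both axes use the 16-day arrays, so their errors are shared. The blue genes lie in the lower part, with changes between 16 and 24 days from -0.79 (Kmt2a) to -0.20 (Kmt5a).

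Differences between paralogues were tested within arrays, which removes any shift that an array gives to both genes of a pair. Of 14 pairs listed, 13 were measured, and an exact permutation test of the difference over the 3 ages (1680 assignments of arrays, smallest possible p 0.00357, adjusted over the 13 pairs) called 8. Pairs of other genes were not run, so it cannot be read whether paralogues differ more often than they do. For single genes, the moderated F over the 3 ages called 50.7% of all genes. Since values are relative to each row, only the change of a difference can be read. The difference Kdm4a minus Kdm4d went from 2.72 ± 0.17 (SD, n = 3) at 8 days to -0.21 ± 0.56 at 16 days and -1.58 ± 0.19 at 24 days, and Kdm3a minus Kdm3b from -1.25 ± 0.37 to 0.08 ± 0.18 and 0.95 ± 0.02. Kdm1a minus Kdm1b went from -0.58 ± 0.11 to 0.07 ± 0.18 and 0.71 ± 0.16. Kdm5a minus Kdm5b fell from 0.28 ± 0.07 to -0.08 ± 0.17 and -0.46 ± 0.07. These 4 pairs reached the smallest p (adjusted p = 0.0116, exact permutation test) and were called whichever array was left out. With blank cells left missing, which keeps 5 to 7 arrays per pair, 0 of the 13 pairs were called (smallest exact adjusted p 0.0619), and 6 had an unadjusted p under 0.05.

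Ezh1 minus Ezh2 went from 0.58 ± 0.14 at 8 days to 0.14 ± 0.20 and -0.27 ± 0.18 (adjusted p = 0.0155, exact permutation test, n = 3 per age), so that the PRC2 catalytic subunits moved apart by 0.84 over the series. Kdm5c minus Kdm5d, the X and Y partners, went from -0.26 ± 0.19 to 0.01 ± 0.06 and 0.10 ± 0.03 (exact adjusted p = 0.0155), the Y-linked gene falling more. Ehmt1 minus Ehmt2 went from 0.24 ± 0.14 to 0.02 ± 0.25 and -0.79 ± 0.18 (0.0199), and was lost without replicate 1 of 24 days (exact adjusted p = 0.0531). Kdm2a minus Kdm2b went from 0.08 ± 0.18 to 0.18 ± 0.05 and -0.32 ± 0.12 (exact adjusted p = 0.0290). It was lost without replicates 1 or 2 of 16 days or any single array of 24 days (up to 0.0871) and without both arrays that stood apart (0.110).

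The 5 pairs not called were Setd1a with Setd1b (exact adjusted p = 0.0567), Prmt1 with Prmt8 (0.0975), Kdm6a with Kdm6b (0.131), Setdb1 with Setdb2 (0.348) and Kmt5b with Kmt5c (0.971). Single arrays mattered here too: Setd1a with Setd1b was called without replicate 2 of 24 days (0.0155), Kdm6a with Kdm6b without replicate 2 of 8 days (0.00929), and Prmt1 with Prmt8 without replicate 1 of 8 days (0.0464) or without both arrays that stood apart (0.0310), all by exact permutation. The difference of Kmt5b and Kmt5c stayed between -0.20 and 0.27 in all arrays.

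**Figure D4:**
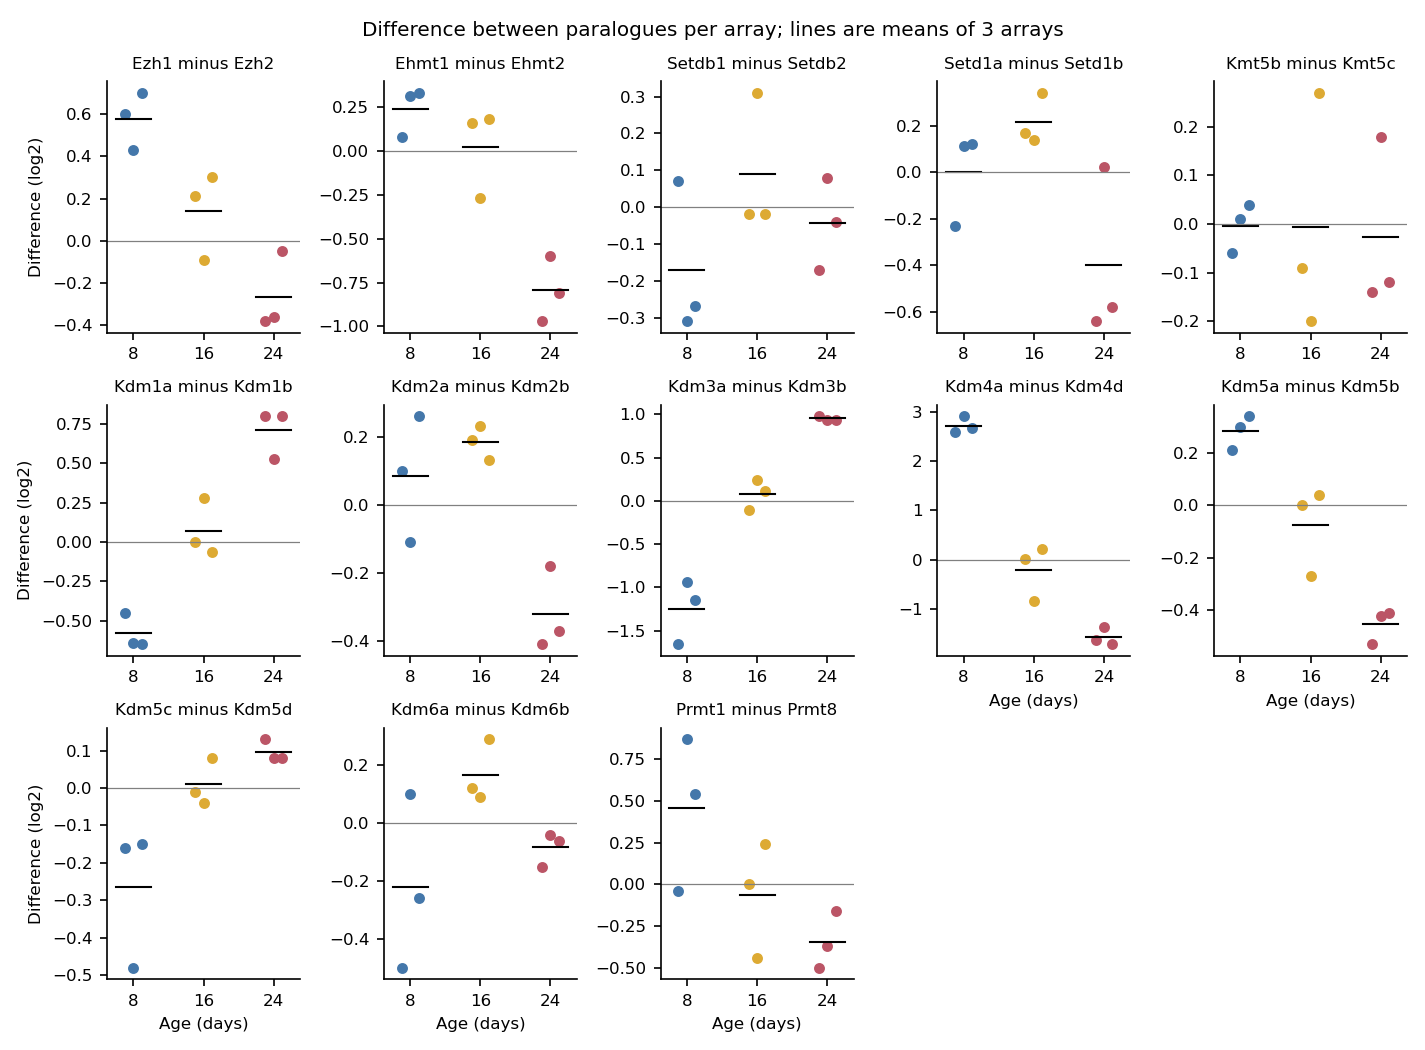
Difference of the log2 values of 13 paralogue pairs within each array (points) by age in days, with lines at the mean of 3 arrays and vertical axes that differ between panels. Kdm3a minus Kdm3b rises from between -1.66 and -0.94 at 8 days to between 0.94 and 0.98 at 24 days, while Kmt5b minus Kmt5c stays around 0.

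Related enzymes that the naming rule does not cover gave mixed counts. Of 16 measured further methyltransferases, 3 rose and 7 fell at 24 against 8 days, where 19.2% of all genes rose and 35.2% fell. The rise of Nsd2 by 0.32 (limma adjusted p = 0.0206) was lost without replicates 1 or 2 of 24 days (up to 0.0590). The SET and MYND domain enzymes Smyd2 and Smyd3 fell by 0.85 ± 0.13 and 0.84 ± 0.14, and Setmar, another SET domain gene, by 0.77 ± 0.11 (limma adjusted p = 2.80e-04, 6.15e-04 and 1.98e-04). Of 8 further demethylases, 2 rose and 4 fell, against the same 19.2% and 35.2%. The rise of Jmjd6 by 0.24 (limma adjusted p = 0.0186) was lost without replicate 1 of 24 days (0.0761). Besides Uty and Phf8, Riox2, a jumonji hydroxylase of ribosomal protein, fell by 0.91 ± 0.22 (0.00524).

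Families of histone acetyltransferases and deacetylases were taken as the nearest comparison. The list was drawn up by family and includes Sirt3, Sirt4 and Sirt5, whose products are mainly mitochondrial. Of 30 acetyltransferases and deacetylases, 18 fell and 7 rose at 24 against 8 days, with a median change of -0.43 on the log2 scale. For the enzymes of methylation these were 30 of 50, 4 of 50 and -0.51. Kat8, the acetyltransferase of H4K16, rose by 1.39 ± 0.11, and the deacetylases Sirt6 and Sirt2 fell by 1.10 ± 0.16 and rose by 1.07 ± 0.12 (limma adjusted p = 4.75e-06, 2.19e-04 and 4.41e-05). At 24 against 8 days the share of falls was 60.0% in both groups and the share of rises was 23.3% for acetylation and 8.00% for methylation. Over all genes 35.2% fell and 19.2% rose, with a median change of -0.18. Sirt3 and Sirt4, which rose by 0.97 and 0.61, are among the 7 rises of the acetylation list. The rise of Sirt4 was lost without replicate 1 of 24 days (limma adjusted p = 0.0597). No test of the difference between the groups was made.

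**Figure D5:**
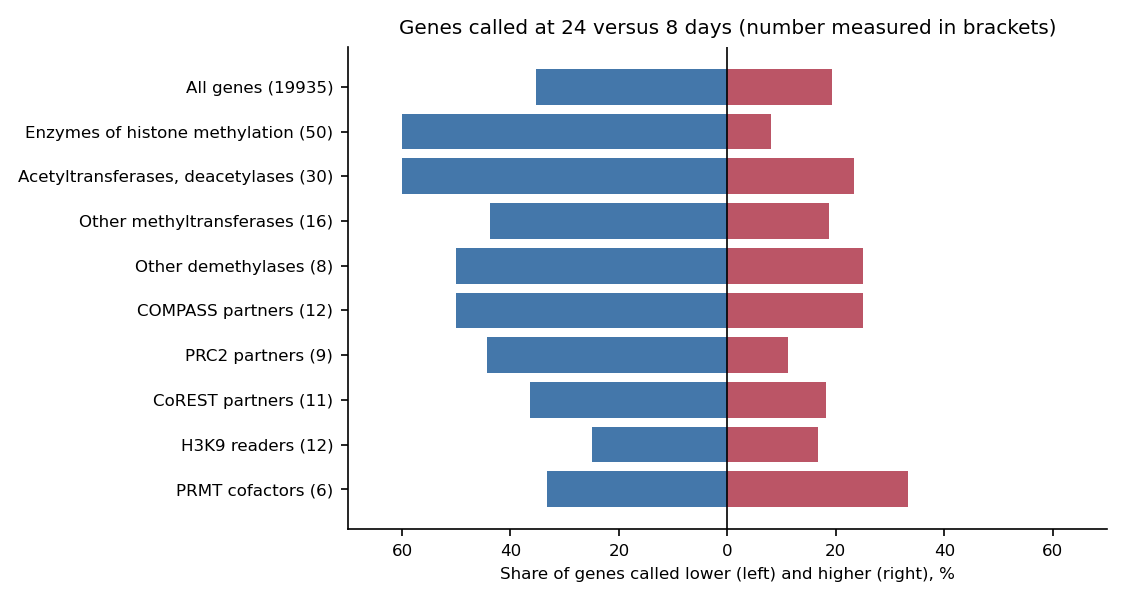
Share of genes called lower (left, blue) and higher (right, red) at 24 against 8 days, in percent, for all 19935 genes, the 50 enzymes of histone methylation and 8 other lists, with the number measured in brackets. Bars carry no error, since they are counts of calls. All genes stand at 35.2% lower and 19.2% higher and the enzymes of histone methylation at 60.0% and 8.00%.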

How the data were processed

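RNA of 9 testis samples was hybridised to Affymetrix whole-transcript arrays, 1 array per sample. The deposited table of the authors holds 28815 rows of log2 differences, each from the median array of its row; the base 2 is not stated by a label and was taken from common practice, and the tools behind the table are not given in the sources used here. A blank cell was read as 0, which put the median of every row at 0. The number of arrays limits the precision, and absolute signal cannot be read from these values. Of the rows, 21780 carried 1 symbol in the platform's probe table and were averaged to 19935 genes, of which 19853 matched the RefSeq gene table (GRCm38.p6). Rows with several symbols (1605) or none (5430) were left out. The 50 genes rest on 55 rows, 5 genes (Kdm7a, Kmt2d, Setd1b, Setd2 and Setd3) on 2.

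limma 3.58.1 in R 4.3.3 fitted a mean per age to the 9 arrays (degrees of freedom 6 residual plus 3.82 from the prior), with Benjamini-Hochberg adjustment over all genes and a threshold of 0.05. It was tested on simulated data. Paralogue differences were tested by exact permutation. Tables and plots were made with Python 3.11.15, pandas 2.3.3, numpy 2.4.6 and matplotlib 3.10.9. The members and lists were chosen with earlier results of these data known. Values per array are given for genes called by the F test with a change among the 16 largest and for genes of called paralogue pairs, and up to 3 genes with the largest called change are named per partner list. p-values measure only the spread between these samples. Alternatives covered blanks, centring, the choice of row, array weights, robust priors, the arrays fitted, a fold minimum, a replicate block and arrays left out. Whether replicate numbers 1 and 2 pair the samples was checked by the correlation, over genes, of deviations from the age means, which lay between -0.46 and 0.20 for same-numbered arrays, so the numbers were not used as a pairing. That of replicate 1 of 8 days and replicate 2 of 16 days was 0.60.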

Additional observations from a re-analysis of the deposited data

How the results depend on the processing

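The calls of the genes with the 16 largest changes and of Ezh2, Kdm5b, Prmt7 and Kmt5a were followed over the 3 comparisons of ages. None of their called directions reversed under any alternative run. Of their results, 942 kept their side of the threshold, 126 lost a call and 12 gained one. The other genes are not in these counts. At 24 against 8 days the counts of 30 falls and 4 rises were within 1.5 times under all alternatives except the fold minimum. With blanks left missing, 5 genes fell between 8 and 16 days and 16 between 16 and 24 days. In these intervals 10.6% and 12.2% of all genes fell. With that setting 1 gene differed between the intervals, and 0 of 13 paralogue pairs were called, with fewer arrays per pair. Centred arrays gave 13 falls between 16 and 24 days, against 9.67% of all genes, and 1 difference between the intervals. With at least a 2-fold change asked for, 2 rose and 0 fell between 8 and 16 days, 0 rose and 0 fell between 16 and 24 days, and 2 rose and 5 fell at 24 against 8 days. The replicate block could be fitted only on the 6 numbered arrays. It left 2 rises and 0 falls between 8 and 16 days (4 and 9 at an unadjusted p under 0.05 in limma), 0 and 0 between 16 and 24 days (1 and 15 unadjusted), 1 difference between the intervals, 17 genes by the F test, and 0 paralogue pairs, where 0.167 was the smallest exact p it allows. The same 6 arrays were also fitted without a block, an alternative chosen after seeing the data. That gave 2 rises and 2 falls, then 0 rises and 1 fall (1 and 19 unadjusted), and 1 difference. Most calls of the intervals that were lost with the block were also lost without it. At 24 against 8 days Kdm5a, Kdm7a, Kmt2e, Kmt5b, Setd1a and Prmt7 lost their calls with the block but kept them without it. Paralogue pairs were not run on these arrays without a block. For the 6 numbered arrays with the block, 5.83% of all genes rose and 4.06% fell between 8 and 16 days. Between 16 and 24 days these shares were 6.01% and 0.482%. Without the block they were 6.52% and 5.95%, then 6.45% and 1.45%. Without both arrays that stood apart, 5 genes differed between the intervals. With each array left out in turn, falls ranged from 5 to 10 and rises stayed at 4 between 8 and 16 days, falls from 12 to 29 and rises from 1 to 2 between 16 and 24 days, falls from 28 to 32 and rises stayed at 4 at 24 against 8 days. Over all genes, falls then ranged from 9.31% to 15.5%, from 8.39% to 26.1% and from 29.2% to 37.1% in that order. The shares of all genes that rose ranged from 8.60% to 10.2%, from 10.0% to 14.4% and from 17.6% to 19.3%. Differences between the intervals ranged from 1 to 3, F calls from 31 to 36 and called paralogue pairs from 6 to 9. Under the alternatives, F calls, interval differences and unadjusted calls were not counted over all genes. Those counts therefore cannot be set against a background. Small changes of these genes in either interval are limited by 3 arrays per age.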
